A study of Mus musculus with 7 samples.

Results

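Polyamine synthesis was examined through 8 genes, chosen by name: Odc1, Amd1, Srm, Sms, Sat1, Oaz1, Oaz2 and Azin1. All 8 were present among the 12958 gene symbols measured in glomeruli, the filtering units of the kidney. The genes were proposed with earlier results of the same comparison known, so their differences are given as a description, with the fit over all genes printed beside them for scale. RNA was sequenced from 7 male BALB-C mice aged 14 weeks, 1 library per animal. In the knockdown group (n = 3) the mice carried a transgenic siRNA against Shroom3, an actin-binding protein of cell junctions. Their littermates that lacked this transgene served as controls (n = 4). Doxycycline was given to both groups through diet and drinking water, starting at 8 weeks of age and lasting 6 weeks. No source used here names the promoter or cell type that drives the siRNA.

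Polyamines are small positively charged molecules that bind nucleic acids and are needed for growth and translation. Ornithine decarboxylase, the product of Odc1, makes putrescine from ornithine and is the usual rate-limiting step. S-adenosylmethionine decarboxylase, from Amd1, supplies the aminopropyl groups that spermidine synthase (Srm) and spermine synthase (Sms) add in turn, and Sat1 acetylates spermidine and spermine for removal. Antizymes, from Oaz1 and Oaz2, bind ornithine decarboxylase and send it to the proteasome, and the antizyme inhibitor Azin1, an inactive relative of the enzyme, binds them in its place. In the mouse kidney Odc1 is known for its high, androgen-raised expression in the proximal tubule, the segment that leaves the glomerulus.

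The sequences shown here are those on which the account turns. The promoter of Odc1, the gene that was lower, spans chr12:17544623-17544922 on the plus strand in RefSeq's GRCm38.p6 table, 250 bases before the start site to 50 after it, the start being RefSeq's. Capitals mark the GC box GGGCGG in either orientation, which occurred 4 times without overlap.
Odc1 promoter: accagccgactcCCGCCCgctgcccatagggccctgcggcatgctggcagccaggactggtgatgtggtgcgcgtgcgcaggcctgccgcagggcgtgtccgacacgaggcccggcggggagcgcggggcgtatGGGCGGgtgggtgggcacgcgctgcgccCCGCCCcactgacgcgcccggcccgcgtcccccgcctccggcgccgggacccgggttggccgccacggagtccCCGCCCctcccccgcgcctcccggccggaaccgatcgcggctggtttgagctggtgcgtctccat
A GC box was present in 35.7% of the 32851 promoters of this length. The Odc1 window held neither the E-box CACGTG (7.15% of promoters) nor the steroid receptor hexamer AGAACA (19.0% of promoters), both searched on either strand. It also lacked the cyclic AMP response element TGACGTCA (1.79% of promoters) and the TATA box TATAAA (13.6% of promoters). Among other members the GC box occurred 4 times in Oaz2, 2 in Sat1, 1 in Amd1, 0 in Oaz1, and 0 and 4 in the windows of Sms. AGAACA occurred once each in Oaz2 and Sat1, and not in Oaz1, Sms or Amd1. Among genes listed below as raised by androgen, Cyp4b1 held it once and Kap, Gusb and Slco1a1 did not. Its absence from such a window therefore does not set Odc1 apart from those genes. Sequence outside these windows was not searched, so sites elsewhere in the gene are unknown here.

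The antizymes are made only when the ribosome shifts frame at a stop codon, which polyamines favour, so their transcript levels do not give their protein levels. The stop codon is in capitals within 30 bases from the GENCODE transcripts Oaz1-205 (positions 71 to 100; gene on chromosome 10) and Oaz2-203 (positions 310 to 339; gene on chromosome 9).
Oaz1 shift site: ctcggtggtgctccTGAtgtccctcaccca
Oaz2 shift site: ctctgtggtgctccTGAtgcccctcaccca
Of the 6 annotated coding transcripts of Oaz1, 3 carry this site with 1 base of the stop codon left out, as the shifted frame needs, and 1 holds it whole. Of the 4 annotated coding transcripts of Oaz2, 2 carry the site with that base left out and none holds it whole.

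Odc1 was the single member of the 8 past the threshold, and it was lower. Odc1 (ENSMUSG00000011179.8; GRCm38 chromosome 12, 17544794 to 17551505, plus strand) had log2 values of 11.62, 11.43 and 11.77 in the 3 knockdown libraries, against 12.20, 12.55, 12.64 and 12.40 in the 4 control libraries. Each knockdown library lay below each control library, with the lowest value in knockdown replicate 2 and the highest in control replicate 3. Odc1 averaged 11.61 ± 0.17 in the knockdown group (SD, n = 3) and 12.45 ± 0.19 in the control group (SD, n = 4). The log2 fold change of Odc1 was -0.84 (SE 0.12, 95% confidence interval -1.11 to -0.58), or 0.558 times the control level. As a description, limma over all genes gave Odc1 a Benjamini-Hochberg adjusted p of 0.00771, rank 104 of the 12958 genes by p. Over all genes 3.02% passed the threshold of 0.05, 2.02% as lower and 0.996% as higher. The two-sided exact permutation test of Odc1 gave p = 0.0571, the smallest that the 35 splits of 3 against 4 libraries allow. Any gene whose groups do not overlap gets this p, as 18.4% of all genes do, Amd1 among them. The test thus only restates that the groups did not overlap.

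**Figure D1:**
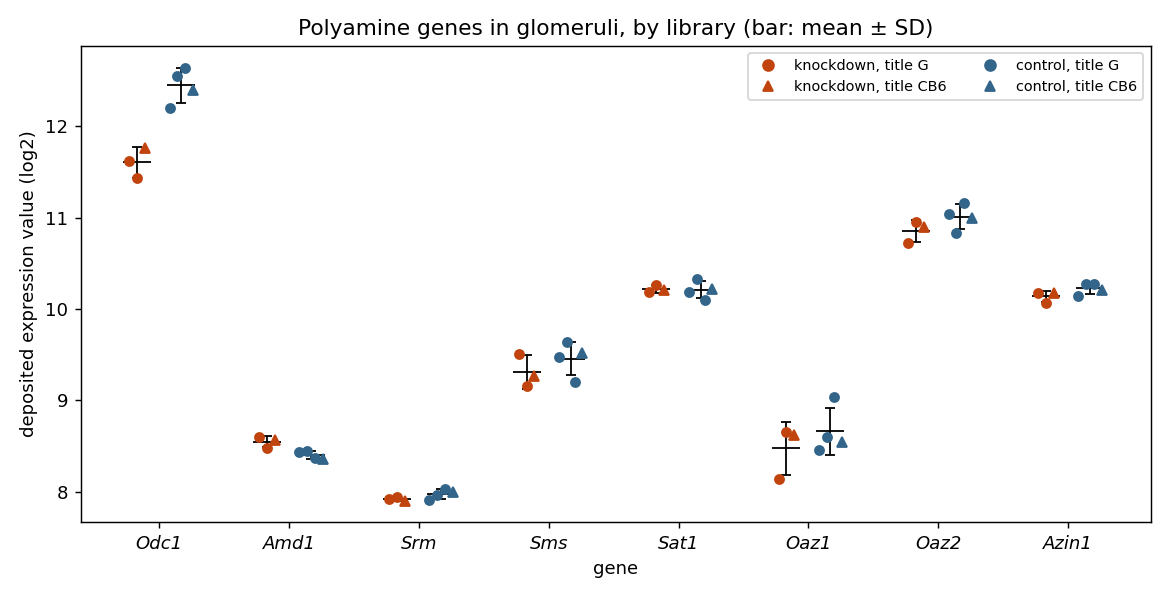
Deposited log2 expression (vertical axis) of the 8 polyamine genes in every library, knockdown left of control for each gene. Points are libraries, circles with titles starting with G and triangles with titles starting with CB6, and bars are the mean ± SD. The groups do not overlap for Odc1, where knockdown lies below control, and for Amd1, where knockdown lies above control.

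Sample titles came in 2 styles, G (2 knockdown and 3 control libraries) and CB6 (1 of each). The difference of Odc1 was -0.94 on the log2 scale among libraries titled G and -0.64 in the CB6 pair. With title style as a covariate Odc1 stayed past the threshold (limma, Benjamini-Hochberg adjusted p = 0.0153), where 1.47% of all genes did (1.13% as lower and 0.34% as higher). In the libraries titled G alone it did not pass (adjusted p = 0.0831), where 0.309% of all genes did (0.201% as lower and 0.108% as higher). Of the 50-base stretches of the Odc1 transcript, 42.2% also occur in annotated transcripts of 16 other genes, 2 of which are among the measured symbols. Of its 100-base stretches 19.6% do, in 9 other genes. How the authors assigned such reads is not given in the sources used here, and the part of these copies in the difference was not tested.

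Amd1 and the synthases Srm and Sms did not pass. Amd1 (chromosome 10, 40287458 to 40302186, minus strand) had 8.60, 8.48 and 8.57 in knockdown libraries, against 8.44, 8.45, 8.37 and 8.36 in control libraries. These groups did not overlap, knockdown being above control, as was the case for 10.8% of all genes. Groups did not overlap for 7.55% of all genes with knockdown below control, and for 18.4% in either direction. The log2 fold change of Amd1 was 0.15 (SE 0.08, 95% confidence interval -0.03 to 0.33; limma, Benjamini-Hochberg adjusted p = 0.368). Its sign was thus opposite to that of Odc1, with the interval reaching 0.

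The values of Amd1 are uncertain because of Amd2, its near copy on the same chromosome (35708675 to 35711892, minus strand). The GENCODE transcripts Amd1-201 and Amd2-201 were 99.6% identical over 3204 aligned bases, with 14 mismatches, 1 of them in the reading frame. The mismatch in the reading frame is in capitals within the 60 bases around it, shown because so little sequence tells the 2 genes apart.
Amd1 window: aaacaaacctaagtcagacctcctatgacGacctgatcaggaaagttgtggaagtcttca
Amd2 window: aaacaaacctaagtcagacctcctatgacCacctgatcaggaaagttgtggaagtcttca
Amd2 had 8.55, 8.45 and 8.53 in knockdown libraries, against 8.39, 8.39, 8.29 and 8.31 in control libraries. Amd1 exceeded Amd2 by 0.03 to 0.05 in knockdown libraries and by 0.04 to 0.07 in control libraries. Over the 7 libraries the Pearson correlation of Amd2 with Amd1 was 0.994, as a description. Of the 50-base stretches of Amd1, 87.6% occur in transcripts of other genes, and of its 100-base stretches 76.4%.

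Srm (chromosome 4, 148591503 to 148594993, plus strand) had 7.92, 7.94 and 7.90 in knockdown libraries, against 7.90, 7.96, 8.03 and 8.00 in control libraries. The groups overlapped and Srm differed by -0.05 (95% confidence interval -0.24 to 0.14). Sms (X chromosome, 157443855 to 157492287, minus strand) had 9.51, 9.16 and 9.26 in knockdown libraries, against 9.47, 9.64, 9.20 and 9.52 in control libraries. It also overlapped, with a log2 fold change of -0.14 (95% confidence interval -0.42 to 0.13). The intervals give the range of differences that 3 and 4 animals leave possible.

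Sat1, the acetyltransferase of polyamine breakdown (X chromosome, 155213132 to 155216449, minus strand), had nearly the same level in both groups. It had 10.18, 10.26 and 10.21 in knockdown libraries, against 10.19, 10.33, 10.10 and 10.22 in control libraries. All knockdown values lay within the range of the control values. Sat1 differed by 0.01 (95% confidence interval -0.14 to 0.16).

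The regulators of the enzyme overlapped between the groups. Oaz1 (chromosome 10, 80826656 to 80829290, plus strand) had 8.14, 8.65 and 8.62 in knockdown libraries, against 8.46, 8.60, 9.04 and 8.55 in control libraries. Its spread was the widest of the 8 genes, with an SD of 0.29 in knockdown and 0.26 in control libraries. The log2 fold change of Oaz1 was -0.19 (95% confidence interval -0.58 to 0.21). For Oaz1 the sign differed between title styles, at -0.30 within the libraries titled G and 0.08 within the CB6 pair. Oaz2 (chromosome 9, 65668001 to 65690300, plus strand) had 10.72, 10.96 and 10.90 in knockdown libraries, against 11.04, 10.84, 11.17 and 10.995 in control libraries. The log2 fold change of Oaz2 was -0.15 (95% confidence interval -0.35 to 0.05). Azin1 (chromosome 15, 38487427 to 38519266, minus strand) had 10.18, 10.07 and 10.17 in knockdown libraries, against 10.15, 10.28, 10.27 and 10.21 in control libraries. Its log2 fold change was -0.09 (95% confidence interval -0.22 to 0.05). Over the 7 members other than Odc1, the adjusted p (limma, Benjamini-Hochberg) ran from 0.368 for Amd1 to 0.967 for Sat1. The median log2 fold change over the 8 was -0.12, against 0.02 over all genes.

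The level of Odc1 relative to its regulators was taken library by library, as a description that reuses the Odc1 values above. Odc1 exceeded Azin1 by 1.45, 1.36 and 1.60 on the log2 scale in knockdown libraries, against 2.05, 2.27, 2.37 and 2.20 in control libraries. It exceeded Oaz2 by 0.90, 0.47 and 0.87 in knockdown libraries, against 1.16, 1.71, 1.48 and 1.41 in control libraries. Odc1 exceeded Oaz1 by 3.48, 2.78 and 3.14 in knockdown libraries, against 3.74, 3.95, 3.61 and 3.85 in control libraries. None of these regulators passed, and their log2 fold changes were -0.19 (Oaz1), -0.15 (Oaz2) and -0.09 (Azin1). The lower differences in knockdown are thus the difference of Odc1 less these values, and no separate result.

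In control glomeruli Odc1 had the highest level of the 8 genes, at the 95.8th percentile of all genes as deposited, and at the 89.6th in knockdown glomeruli. Whether the authors divided by gene length is not given, and across 12354 genes longer transcripts had higher deposited levels (Spearman rho 0.313, genes not being independent replicates). The order was therefore also taken per length, as the level less log2 of the longest coding transcript in kb. On that scale the control order was Odc1 (11.31), Oaz2 (10.13), Sat1 (9.99), Oaz1 (8.56), Azin1 (7.94), Sms (7.56), Srm (7.55) and Amd1 (6.72). Oaz2 and Sat1 overlapped between control libraries, as did Sms and Srm, while the other neighbours did not. As deposited, without the length term, Azin1 and Sat1 followed Oaz2 and overlapped with each other, and Oaz1 stood below Sms. Of the 50-base stretches of Oaz1, 52.2% occur in its annotated pseudogene Oaz1-ps, and 28.7% of those of Sms occur in other genes. Of the 100-base stretches the shares were 41.8% for Oaz1 and 27.7% for Sms. These levels thus carry an uncertainty that was not tested.

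**Figure D2:**
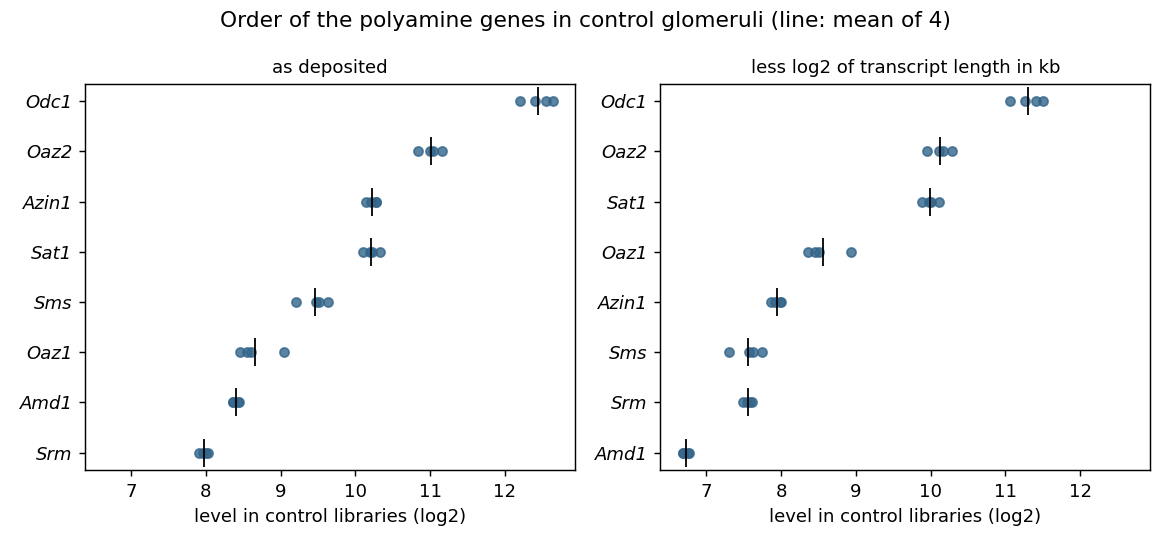
Levels of the 8 genes in the 4 control libraries, on the log2 scale as deposited (left) and less log2 of transcript length in kb (right). Points are libraries and lines their means. Odc1 is highest on both scales, while per length Oaz1 and Sat1 stand higher in the order and Azin1 lower.

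The other genes of the pathway mostly did not pass. Of 37 genes in 6 lists around the 8 members, 31 were measured, 1 fell and none rose, against 3.02% of all genes past the threshold. The gene that fell was Ass1, argininosuccinate synthase, which makes the precursor of arginine and so lies upstream of ornithine. Ass1 had 13.34, 12.96 and 13.15 in knockdown libraries, against 13.80, 14.17, 13.97 and 14.13 in control libraries. The groups did not overlap, and the log2 fold change of Ass1 was -0.87 (SE 0.12; limma, Benjamini-Hochberg adjusted p = 0.00672). It passed with title style as a covariate (adjusted p = 0.0145) and not in the libraries titled G alone (adjusted p = 0.133). Of its 50-base stretches 55.3%, and of its 100-base stretches 38.9%, occur in the annotated transcript of another gene, Gm5424.

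The remaining 5 genes of ornithine and arginine supply had negative log2 fold changes and did not pass. Among 8 genes of S-adenosylmethionine supply and salvage none passed, 5 being negative. Mat2a, which makes S-adenosylmethionine outside the liver, had 12.54, 12.22 and 12.63 in knockdown libraries, against 13.06, 12.85, 12.85 and 12.77 in control libraries. These groups did not overlap, but Mat2a missed the threshold (difference -0.42; adjusted p = 0.0808 by limma). Adi1, of the salvage branch, differed by 0.16.

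None of 4 genes of polyamine oxidation and acetylated polyamine removal passed, the spermine oxidase Smox differing by -0.24 and the deacetylase Hdac10 by 0.17. None of 8 genes of polyamine transport passed, Atp13a3, a polyamine-transporting ATPase, differing by -0.02 and Slc47a1, an exporter of organic cations, by -0.01. In this list 5 genes were negative and 3 positive. The largest difference was that of Slc22a2, an organic cation transporter, at -0.57 (95% confidence interval -0.98 to -0.17; adjusted p = 0.133 by limma). Its groups overlapped. The translation factor eIF5A carries hypusine, an amino acid made from spermidine. None of its 4 genes passed, with Eif5a at -0.14 and Eif5a2 at 0.02. None of 7 genes of MYC partners and relatives passed, with Mxi1 at 0.15 and Max at 0.13. The other 5 were negative, and the median of the 7 was -0.12. Odc1 is a textbook target of MYC, and Myc itself was not analysed here.

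**Figure D3:**
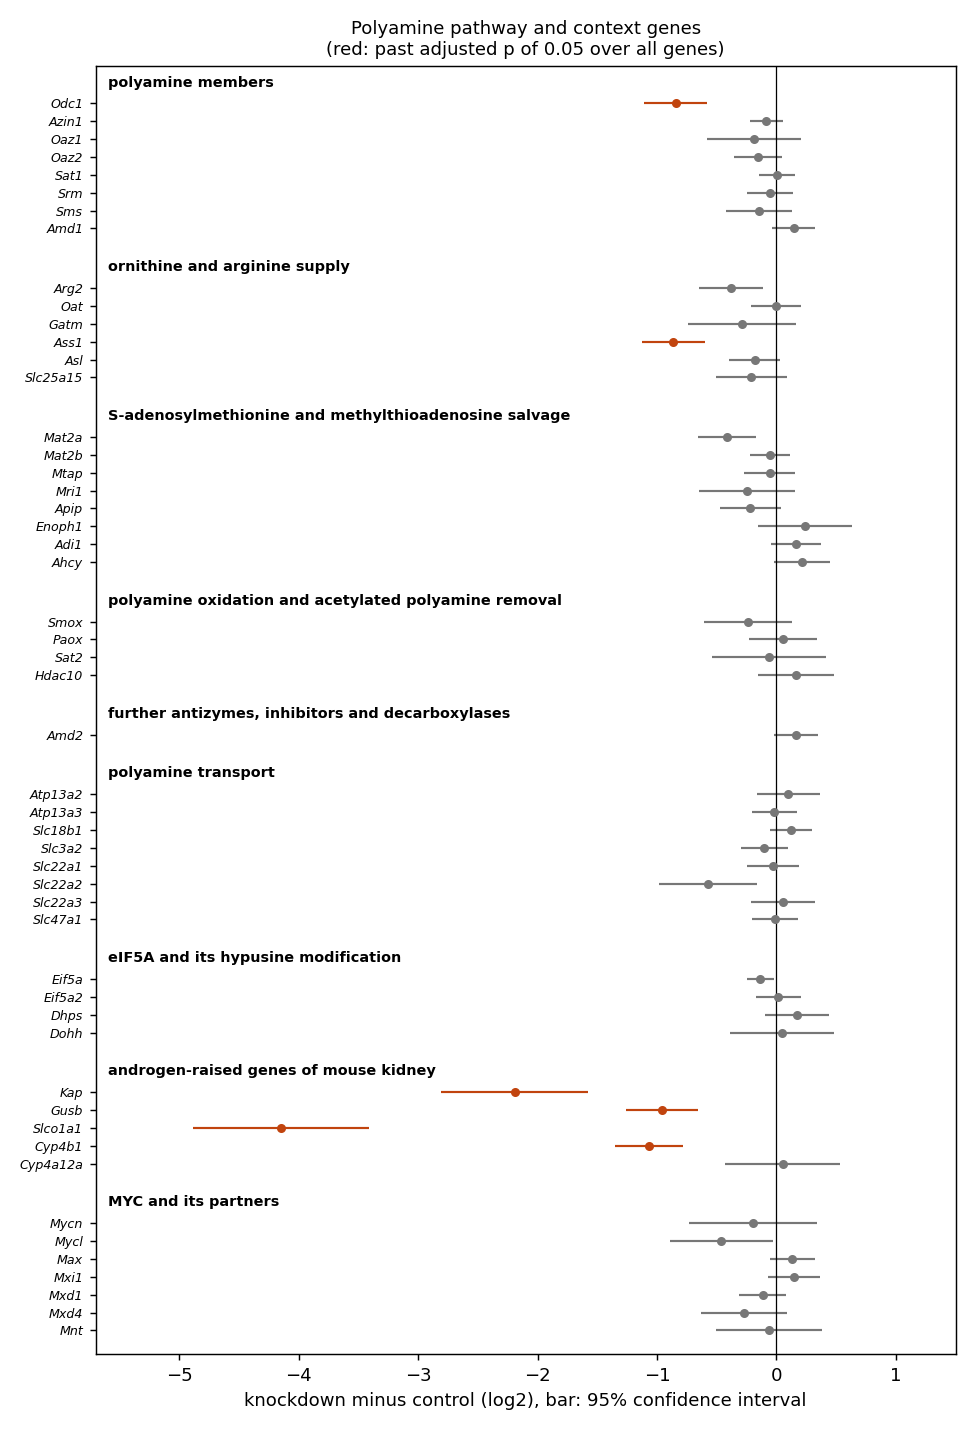
Knockdown minus control on the log2 scale (horizontal axis) for the 8 polyamine genes, 31 further pathway genes and 12 context genes, with 95% confidence intervals. Red marks genes past an adjusted p of 0.05 over all genes, which are Odc1, Ass1, Kap, Gusb, Slco1a1 and Cyp4b1, each of them negative.

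Most of the measured genes listed as raised by androgen in the mouse kidney were lower in the same libraries as Odc1. Of 5 measured genes on that list besides Odc1, 4 fell, none rose and Cyp4a12a did not pass (0.05), against 2.02% of all genes past the threshold as lower. The list was drawn up from background knowledge with earlier results of this comparison known, those for Slco1a1 and Cyp4b1 among them. Cyp4a12a was added after its values were seen. The count is therefore a description and not independent evidence of a direction. Kap, the kidney androgen-regulated protein of proximal tubule cells, had 14.60, 13.41 and 13.78 in knockdown libraries, against 15.98, 15.98, 15.98 and 16.56 in control libraries, the first 3 of these being the same value. Kap differed by -2.19 (SE 0.27; limma, Benjamini-Hochberg adjusted p = 0.00481). Gusb, the lysosomal beta-glucuronidase, had 9.45, 9.07 and 9.46 in knockdown libraries, against 10.14, 10.15, 10.57 and 10.29 in control libraries. Gusb differed by -0.96 (SE 0.13; limma, Benjamini-Hochberg adjusted p = 0.00771), and neither gene overlapped between the groups. Slco1a1, an organic anion transporter, differed by -4.15, and Cyp4b1, a cytochrome P450, by -1.06. Knockdown replicate 2 had the lowest value of Odc1, Ass1, Kap, Gusb, Slco1a1 and Cyp4b1. The same held for the proximal tubule markers Cyp2e1 and Slc22a12, though not for Pck1, so it was not particular to these genes. Within the libraries titled G and within the CB6 pair, Kap differed by -1.97 and -2.78 and Gusb by -1.03 and -0.83. With title style as a covariate all 4 genes passed, and in the libraries titled G alone only Slco1a1 of the 4 did (adjusted p = 0.0144).

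**Figure D4:**
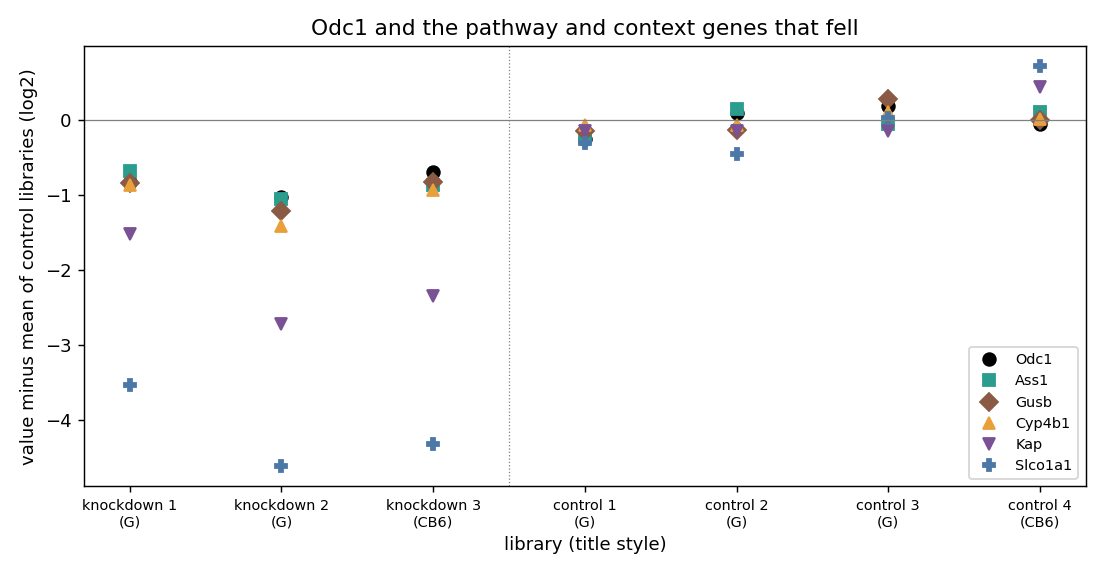
Each library's log2 value less the mean of the control libraries (vertical axis) for Odc1 and the 5 pathway and context genes that fell, with libraries along the horizontal axis. In each of the 3 knockdown libraries all 6 genes lie below 0, Slco1a1 by the most.

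Odc1, Kap, Slco1a1 and Cyp4b1 are expressed by proximal tubule cells, and markers of those cells moved in the same libraries. All 22 markers were measured, with 9 lower, Kap and Cyp4b1 among them, and 1 higher past the threshold, against 2.02% of all genes as lower and 0.996% as higher. With title style as a covariate 7 passed as lower and 1 as higher, and in the libraries titled G alone 2 as lower and 1 as higher. The median log2 fold change of the 22 was -0.32, with 18 of them negative. Cyp2e1 (-3.26), Slc22a12 (-2.26) and Pck1 (1.49) had the smallest p. As antilogarithms, the 22 summed to 1.497 to 1.92% of the library total in knockdown and 1.82 to 2.38% in control libraries. The groups thus overlapped, but genes of high level weigh most in this sum. Pck1, which was higher, averaged 16.01 in knockdown and 14.52 in control libraries, and Kap, which was lower, 13.93 and 16.12. The sum without single genes was not taken, so the overlap does not show that the markers at large were level. The lowest marker value was 6.57 on the log2 scale, where the lowest value of any gene was 2.32 to 3.06 by library. In these bulk samples fewer cells of a type and less RNA per cell cannot be told apart, and the part of tubule content in the difference of Odc1 was not tested.

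Markers of podocytes, which define the tissue, were all above the library medians (9.15 to 9.16), with a lowest value of 9.58. As antilogarithms they summed to 1.82 to 2.10% of the library total in knockdown and 1.72 to 2.36% in control libraries. The sum of the proximal tubule markers was similar, at 1.82 to 2.38% in control libraries. Kap and Lrp2 stood there at the 99.97th and 99.94th percentile of all genes as deposited, so the samples held much tubule RNA. Of 20 podocyte markers 4 passed as lower (median -0.26), Magi2, Thsd7a and Vegfa with the smallest p, against 2.02% of all genes. With title style as a covariate 2 passed, Magi2 and Thsd7a, while Vegfa did not (limma, adjusted p = 0.0543). Among further marker lists, 2 of 10 mesangial genes passed as lower (Sfrp2, Serpine2), 2 of 14 distal nephron genes as higher (Slc4a1, Atp6v1g3), and the red cell gene Alas2 as lower, against the same 2.02% as lower and 0.996% as higher. With title style as a covariate Slc4a1 alone of these 5 passed, and in the libraries titled G alone none of the podocyte, mesangial, distal or red cell markers did. None of 14 endothelial and 6 immune markers passed. Negative log2 fold changes were not particular to tubule markers. They were found for 17 podocyte, 12 endothelial (median -0.23), 7 mesangial (median -0.13), 4 distal nephron (median 0.21) and 2 immune markers (median 0.02). Shroom3, the targeted gene, was at 10.80, 10.91 and 10.89 in the libraries labelled knockdown, against 10.94, 10.85, 11.36 and 11.06 in control libraries, a difference of -0.19 that did not pass (adjusted p = 0.417 by limma), so its transcript gave no check of the labels.

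Among 6478 other genes of at least median level, those most like Odc1 over the 7 libraries were Slc20a1, Tmem150a, Zbtb20, Acox3 and Nlrp6, with Pearson correlations from 0.991 to 0.996. Of these, Tmem150a differed by -0.88, Acox3 by -0.54, Zbtb20 by -0.50, Nlrp6 by -0.38 and Slc20a1 by -0.23, and the first 4 passed. Those most opposed were Chp1, Ints4, Nufip2, Anxa7 and Zfp110, with correlations from -0.997 to -0.993 and differences of 0.10 to 0.25, none past the threshold. The groups do not overlap for Odc1, so the group difference enters these correlations, which carry no p. For Amd1, whose p was the next smallest, the most alike among 6479 genes of at least median level, which leaves out Amd2 (0.994), were Fcho2, Avl9, Tmem223, Pcbp2 and Vps39 (0.975 to 0.997) and the most opposed Arhgap1, Elmo2, Npr3, Col4a1 and Pttg1ip (-0.990 to -0.969), none past the threshold.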

How the data were processed

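Glomerular RNA of 7 mice was sequenced, 1 library per animal. Per the labels' protocols, bead-filled glomeruli were collected with a magnet and sieves, and poly-A RNA was used with ribosomal RNA depleted. Alignment was by BWA to mm10 per the submitters' processing notes. For counting, strand and normalization, no method is given in the sources used here. Each deposited table holds 1 value per gene symbol from the authors, taken as log2 because the antilogarithms to base 2 sum to nearly equal totals. Depth is unknown, since no counts were used. The deposited values were tested with limma 3.58.1 (R 4.3.3; variance trend with intensity; knockdown over control), with Benjamini-Hochberg adjustment over 12958 genes and a threshold of 0.05. Genes had to exceed the table minimum in 3 libraries, which removed 0 genes. The exact permutation test used scipy 1.17.1. P-values rest on the spread between these 7 libraries as deposited, which an earlier adjustment may have made unlike the spread between the animals.

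The values carry marks of earlier adjustment: Kap has the same value in 3 control libraries, and the deviations of the CB6 pair from their group means correlate at -0.958 across genes. The fit with title style is given for this reason, since a batch removed before deposit would leave the p-values of the simple fit too small. Annotation and transcripts are GENCODE M21 (GRCm38, the same build as mm10; 12701 symbols matched), coordinates are 1-based, and promoters of 6 members come from RefSeq (GRCm38.p6). Shared stretches of 50 and of 100 bases were searched on both strands among all annotated transcripts.

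Members and lists were chosen with earlier results of these data known. Genes named are the 8 members; in each pathway or context list up to 4 past the threshold with the smallest p (the 2 of highest mean in a list with none); up to 3 per marker list; the 5 most and least correlated with Odc1 and with Amd1; and Shroom3. Cyp4a12a was added after its values were seen, and Slc22a2 was named because its difference was the largest in its list. Tests were run on simulated data first. Alternatives were 2 scalings, 2 filters, no trend, title style, libraries titled G alone, other thresholds and each library left out.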

Additional observations from a re-analysis of the deposited data

Results flagged for a closer look

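Kap was flagged for 1 control library that stood apart from the others. Control replicate 4, of the CB6 pair, had 16.56 on the log2 scale while the other 3 control libraries shared the value 15.98, so the gap was the whole range (ratio 1, above Dixon's critical value for 4 samples). Of 15 genes looked at in this way, in control libraries alone, this was the single flag. Chance alone flags about 1 in 20 groups of independent values without ties. With 3 equal values any other value in the remaining library gives a ratio of 1, so that rate does not hold for Kap.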

How the results depend on the processing

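Odc1 kept its direction in 14 alternatives and passed in 13, with log2 fold changes from -0.94 to -0.75. Among the 13, the fit with no filter only repeats the main fit, since the filter removed 0 genes. The exception was the libraries titled G alone, with 2 against 3 animals. There the count of members past the threshold was 0 and that of the 43 pathway and context genes was 1, against 1 and 5. With a library left out these counts stayed at 1 and 5, while that over all genes ran from 134 to 480, against 391; it was 191 with title style as a covariate, 40 in the libraries titled G alone, 124 at an adjusted p of 0.01 and 846 at 0.1. Sat1, near 0 throughout, turned to -0.015 without knockdown replicate 2 and to -0.028 without control replicate 3 (range -0.028 to 0.048). No other member changed sign or side of the threshold; Oaz1, Srm, Amd1 and Slco1a1 lie outside the upper part of genes by mean and have no value in that alternative. No paired analysis was possible because the labels give the groups no shared replicate numbers. Without counts, the limit that depth sets is unknown.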
